A study of Mus musculus with 30 samples.

Results

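The genes described here fold, inspect and export the proteins that enter the secretory pathway. They are 40 mouse genes chosen by symbol, 40 of the 38561 genes in the count matrix, and fall by role into 9 Hsp70 and Hsp90 type chaperones with their helpers, 2 lectin chaperones, 5 genes of disulfide bond formation, 3 genes of stress sensing, 8 genes of ER-associated degradation, 3 genes of the translocon and 10 genes of the COPII coat. All 40 passed the filter on low counts, as part of 14438 genes tested. The cells were adipose-derived stem cells, isolated from inguinal fat of 30 male C57BL6/J mice by a sort for Sca-1+, CD34+, CD31-, CD45- and Ter119- cells and grown to passage 2, and each mouse gave 1 RNA library. The study crossed age with diet. The groups were 6 aged obese mice (killed at 52 weeks, fed since weaning on a high-fat diet in which fat supplied 60% of the calories), 8 young obese mice (killed at 20 weeks on the same diet), 8 aged lean mice (52 weeks, control chow) and 8 young lean mice (20 weeks, control chow). All groups shared strain, sex, depot, sort and culture, and the measurements are of cells grown away from the animal. Aged obese mice had eaten the diet for longer than young obese mice, so in obese mice age and time on the diet cannot be told apart.

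Secreted and membrane proteins are threaded into the endoplasmic reticulum (ER) through the Sec61 channel, folded there with the help of chaperones, glycan-binding lectins and disulfide isomerases, and packed into vesicles coated with COPII for transport to the Golgi apparatus. Proteins that fail to fold are drawn back to the cytosol and degraded. When unfolded proteins accumulate, the sensors IRE1 (encoded by Ern1), ATF6 and PERK start the unfolded protein response, in which ATF6 and spliced XBP1 bind short elements in the promoters of chaperone genes. Adipose stem cells are fibroblast-like cells that make much extracellular matrix, including collagens, which leave the ER in COPII carriers.

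Those promoter elements offer a description of the set that does not use the counts. The elements are known from promoters of chaperone genes, and the set was chosen to hold such genes. A high share of matches follows from that choice and is no test. A promoter window, from 250 bases before to 50 bases after the start of the gene, was found in the RefSeq table (GRCm38.p6) for 35 of the 40 genes. Both strands were searched for the ER stress response element ERSE (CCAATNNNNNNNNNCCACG), for ERSE-II (ATTGGNCCACG) and for the core of the unfolded protein response element UPRE (TGACGTGG). The motifs share letters, since CCACG read on the other strand is CGTGG, the end of the UPRE core. ERSE was found in 9 of these 35 genes (25.7%), against 37 of 27025 genes with a window (0.137%). ERSE-II was found in 2 of 35 (5.71%, against 0.0444% of all genes), and the UPRE core in 2 of 35 (5.71%, against 0.714%). The windows with ERSE were those of Hspa5, Hsp90b1, Dnajc3, Creld2, Calr, Canx, Pdia6, Syvn1 and Derl3, those with ERSE-II were Dnajb11 and Herpud1, and those with the UPRE core were the coat genes Sec23a and Sec24d. A match says that the letters are present, not that a factor binds there.

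The stretches below are printed for 7 genes with a match, Hspa5 and those called in a comparison, with the matched letters in capitals. Each is the strand of the gene, read 5′ to 3′, from GRCm38.p6: Hspa5 at chr2:34771995-34772073 (plus strand), Hsp90b1 at chr10:86705503-86705686 (minus strand), Dnajc3 at chr14:118937797-118937875 (plus strand), Canx at chr11:50325770-50325848 (minus strand), Herpud1 at chr8:94386347-94386417 (plus strand), Sec23a at chr12:59011974-59012041 (minus strand) and Sec24d at chr3:123267440-123267507 (plus strand). Hspa5, Dnajc3 and Canx hold 1 ERSE each, Hsp90b1 holds 2, of which the second lies on the other strand, Herpud1 holds ERSE-II, and Sec23a and Sec24d hold the UPRE core. Counted from the annotated start, the first base of the match was at -65 in Hspa5, -105 in Dnajc3, -145 in Canx, -212 and -107 in Hsp90b1, -52 in Herpud1, -26 in Sec24d and 7 in Sec23a.
Hspa5: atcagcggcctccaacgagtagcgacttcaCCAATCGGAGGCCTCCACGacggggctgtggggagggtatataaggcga
Hsp90b1: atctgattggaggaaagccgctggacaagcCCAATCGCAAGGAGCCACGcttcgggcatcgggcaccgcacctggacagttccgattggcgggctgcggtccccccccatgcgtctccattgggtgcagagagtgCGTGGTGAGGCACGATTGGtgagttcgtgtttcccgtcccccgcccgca
Dnajc3: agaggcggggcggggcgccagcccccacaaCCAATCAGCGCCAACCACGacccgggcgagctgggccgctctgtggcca
Canx: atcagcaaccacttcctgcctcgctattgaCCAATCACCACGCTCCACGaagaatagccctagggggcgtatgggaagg
Herpud1: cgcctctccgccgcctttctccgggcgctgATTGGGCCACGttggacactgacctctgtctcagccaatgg
Sec23a: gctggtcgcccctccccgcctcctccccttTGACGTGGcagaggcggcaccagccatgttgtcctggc
Sec24d: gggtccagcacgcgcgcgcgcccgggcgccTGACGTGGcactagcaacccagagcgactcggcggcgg

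Counts in genes ranged from 30597765 to 47970233 per library, and levels are given in CPM, read counts scaled to a common library size. The label was checked on marker genes. Ly6a, which encodes Sca-1, lay between 176 and 1250 CPM in all 30 libraries and Pdgfra between 108 and 496 CPM, while Cd34 ranged from 0.193 to 37.9 CPM. Endothelial markers summed to at most 20 CPM in a library, haematopoietic ones to at most 9.02 CPM and erythroid ones to at most 0.336 CPM, with Ptprc (CD45) at 0.029 CPM or less and Hba-a1 at 0. Adipocyte markers summed to at most 138 CPM. Summed mural markers had medians of 4620 CPM in aged obese, 5250 in young obese, 3790 in aged lean and 3880 in young lean libraries. Summed stromal progenitor markers had lower medians in the same groups, 2730, 2290, 2580 and 2550 CPM. Libraries of a group were not evenly spaced. The chi-square statistic per gene between libraries was 8.18 for young obese 1 and 2 and 6.44 to 22.8 over the 10 pairs of young obese 18, 19, 20, 21 and 23, against a median of 140 over all 28 pairs of young obese libraries. The young obese group thus held a close pair, a close set of 5 and library 22. It was 75.7 for aged obese 10 and 12 and 76.3 for aged obese 15 and 17, against a median of 243 over 15 aged obese pairs. No pair agreed within sampling noise, so no libraries were merged. That does not show that libraries of a close set vary independently, as the tests assume. The labels name no batch. Values without each of these sets were computed, those without young obese 18, 19, 20, 21 and 23 and without aged obese 15 and 17 by a choice made after the data were seen.

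The genes differed widely in level. Per kilobase of exon, P4hb, the beta subunit of prolyl 4-hydroxylase and a disulfide isomerase, stood highest with 1140 CPM per kilobase over all libraries. The calcium-binding lectin chaperone Calr followed with 722, Hspa5 (BiP, the main Hsp70 of the ER) with 501, the glycoprotein disulfide isomerase Pdia3 with 456 and Hsp90b1 (the ER Hsp90, also called GRP94) with 316 CPM per kilobase. Among coat genes Sar1a, the GTPase that starts coat assembly, was highest per kilobase (77.2) and the cargo adaptor Sec24a lowest (3.98). The sensors were low, with 5.50 CPM per kilobase for Atf6 and 2.69 for Ern1, and Derl3, a member of the derlin family of degradation channels, was close to absent (0.301). The 40 genes summed to a median of 17000 CPM in aged obese, 17700 CPM in young obese, 15400 CPM in aged lean and 15500 CPM in young lean libraries. Within groups their median spread was below that of all tested genes, in a comparison not matched for level. The median SD of log2 CPM was 0.168 in aged obese, 0.156 in young obese, 0.162 in aged lean and 0.225 in young lean libraries for the 40 genes, and 0.390, 0.267, 0.302 and 0.295 in the same groups for all tested genes.

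**Figure D1:**
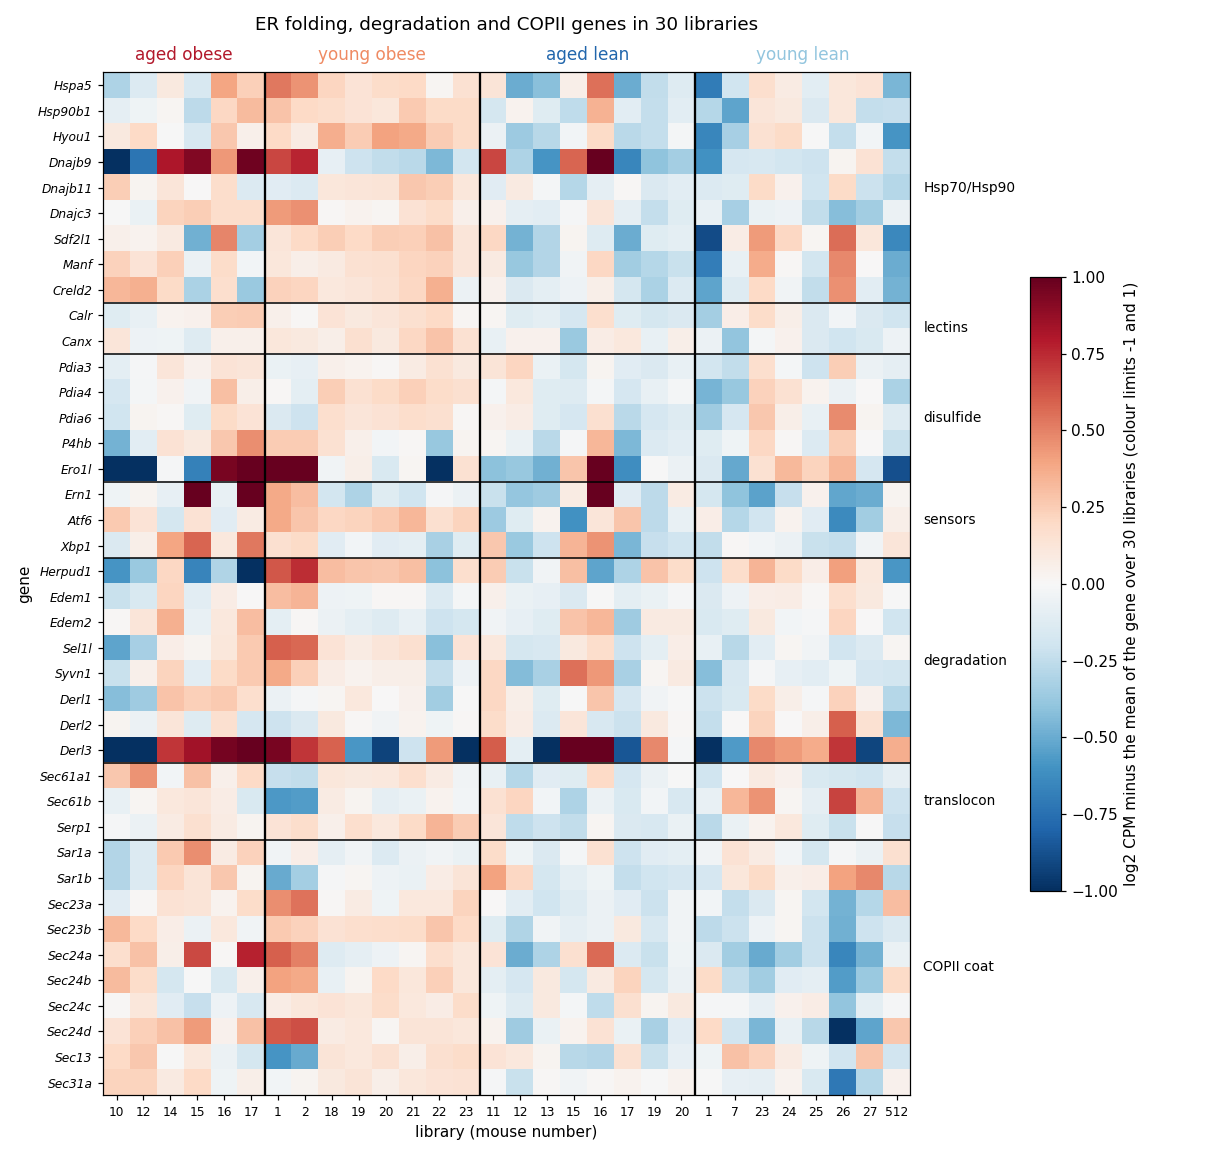
Each row is a gene, ordered by role, and each column 1 of 30 libraries, named by mouse number and grouped by age and diet. Colour is log2 CPM minus the mean of that gene over all libraries, with colours saturated at -1 and 1; most young obese columns are red over the chaperone and COPII rows, and Dnajb9, Ero1l and Derl3 are among the genes that vary most within groups.

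Obesity in young mice went with higher levels of several chaperone and coat genes. In young obese against young lean libraries 11 of the 40 genes (27.5%) were called higher and 0 lower by the quasi-likelihood test of edgeR at a Benjamini-Hochberg adjusted p below 0.05, while 3.46% of the 14438 tested genes were called higher and 5.37% lower, 8.83% in all. The changes were small. The median log2 fold change of the 40 genes was 0.22 (range -0.34 to 0.65) with 33 positive, beside -0.02 over all tested genes, of which 47.6% were positive. DESeq2 called 13 of the 40 higher (32.5%, beside 5.75% of tested genes) and 1 lower, and limma with voom called 19 higher (47.5%, beside 13.9%). Groups that did not overlap were found for 4 of the 40 genes, all higher, and for 1.61% of tested genes in either direction. Since RNA was taken from whole cultures, a change in the RNA per cell and a change in the share of cells that express a gene cannot be told apart.

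The COPII coat held 5 of the 11 calls, out of 10 coat genes, with a median log2 fold change of 0.27. Sec23b encodes an inner coat subunit that stimulates GTP hydrolysis by SAR1. It had 56.9, 59.0 and 62.6 CPM (lowest, median and highest) in young obese libraries, against 37.0, 44.5 and 52.2 CPM in young lean libraries. The groups did not overlap, and the log2 fold change was 0.39 ± 0.07 (SE, adjusted p = 0.00884). Its paralog Sec23a had 148, 164 and 223 CPM in young obese libraries, against 110, 136 and 190 CPM in young lean libraries, with a log2 fold change of 0.31 ± 0.09 (adjusted p = 0.0351). The Sec23a groups overlapped, with the highest young lean library, YL512, above the median of the young obese ones.

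SEC24 proteins form the other part of the inner coat and bind the cargo. Sec24a had 37.6, 43.1 and 62.4 CPM in young obese libraries, against 26.3, 32.4 and 39.3 CPM in young lean libraries, a log2 fold change of 0.50 ± 0.14 (adjusted p = 0.0311). The highest values came from young obese 1 and 2 (62.4 and 58.4 CPM), and the lowest from young lean 26. Sec24d averaged 204 ± 38.5 CPM in young obese and 146 ± 46.2 CPM in young lean libraries (SD, n = 8 each), with a log2 fold change of 0.49 ± 0.15 (adjusted p = 0.0454). Its lowest young lean library, 26, had 61.4 CPM. Sec24b averaged 80.1 ± 9.10 CPM in young obese and 63.8 ± 12 CPM in young lean libraries (0.33 ± 0.10, adjusted p = 0.0409). The fourth paralog Sec24c was not called by edgeR (0.18 ± 0.07, adjusted p = 0.0769), though DESeq2 and voom called it higher. Every young obese library lay above the young lean median for each of the 4 SEC24 genes.

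The outer coat and the GTPases were not called by edgeR. Sec31a, which with SEC13 forms the outer cage, had 351, 385 and 396 CPM in young obese libraries, against 218, 337 and 369 CPM in young lean libraries (0.23 ± 0.08, adjusted p = 0.0613). DESeq2 and voom called Sec31a higher. The low value was again that of young lean 26, and the groups overlapped. Log2 fold changes were -0.07 for Sec13, -0.06 for Sar1a and -0.21 for Sar1b. Sar1b starts 52 bases from Sec24a in GENCODE M21, on the opposite strand, and in this comparison the values of these neighbours had opposite signs. Summed over the 10 genes, the coat took 1540 to 1670 CPM in young obese and 1120 to 1580 CPM in young lean libraries.

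Among the chaperones 3 of 9 were called, and all 9 had positive log2 fold changes (0.15 to 0.43). Dnajc3 (p58IPK), a J-domain co-chaperone of BiP, had 173, 184 and 236 CPM in young obese libraries, against 128, 154 and 166 CPM in young lean libraries. The groups did not overlap, and the log2 fold change was 0.37 ± 0.08 (adjusted p = 0.0123). Hyou1, an Hsp110-type nucleotide exchange factor of the ER, had 301, 338 and 374 CPM in young obese libraries, against 180, 259 and 323 CPM in young lean libraries (0.43 ± 0.11, adjusted p = 0.0201). Every young obese library was above the young lean median, though the groups overlapped. Hsp90b1 averaged 1440 ± 56.9 CPM in young obese and 1160 ± 182 CPM in young lean libraries (SD, n = 8 each), with a log2 fold change of 0.32 ± 0.10 (adjusted p = 0.0416).

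Hspa5, the best known target of the unfolded protein response, was not called by edgeR, DESeq2 or voom. It had 2100, 2370 and 2990 CPM in young obese libraries, against 1280, 2060 and 2330 CPM in young lean libraries, a log2 fold change of 0.34 ± 0.14 (adjusted p = 0.125). All 8 young obese libraries lay above the young lean median. The wide young lean range reached down to the libraries YL1 and YL512, and the highest values were those of young obese 1 and 2. The remaining chaperone genes were not called by edgeR either. They are the BiP co-chaperones Dnajb9 and Dnajb11, the ER-resident Sdf2l1, and the secreted stress-induced Manf and Creld2, and their log2 fold changes lay between 0.15 and 0.24. Voom called Dnajb11 and Creld2 higher.

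The lectin chaperone Canx (calnexin), which holds newly made glycoproteins at the ER membrane, had 607, 640 and 713 CPM in young obese libraries, against 444, 544 and 600 CPM in young lean libraries. The groups did not overlap, and the log2 fold change was 0.27 ± 0.07 (adjusted p = 0.0236). Its soluble counterpart Calr was not called by edgeR (0.16 ± 0.08, adjusted p = 0.164) and was called higher by voom. None of the 5 disulfide genes was called by edgeR, with a median log2 fold change of 0.08. The isomerase genes P4hb, Pdia3, Pdia4 and Pdia6 had values between 0.03 and 0.22, and voom called Pdia4 higher. The largest, 0.65, was that of the oxidase gene Ero1l, whose levels ran from 108 to 997 CPM in young obese and from 148 to 343 CPM in young lean libraries. Only young obese 1 and 2 lay above 343 CPM, and 1 young obese library, 22, lay below all young lean ones.

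Of the sensors Atf6 was called. It had 55.8, 59.1 and 64.9 CPM in young obese libraries, against 32.1, 44.9 and 52.3 CPM in young lean libraries, without overlap, and its log2 fold change was 0.42 ± 0.10 (adjusted p = 0.0201). Ern1 was not called, with 16.7, 19.3 and 26.8 CPM in young obese libraries, against 14.2, 16.6 and 21.2 CPM in young lean libraries (0.26 ± 0.22, adjusted p = 0.46). Xbp1, whose mRNA is spliced by IRE1, had 144, 168 and 205 CPM in young obese libraries, against 152, 174 and 196 CPM in young lean libraries (0.03 ± 0.12, adjusted p = 0.886). Its groups lay on top of each other. Gene counts do not separate spliced from unspliced Xbp1.

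Serp1 (RAMP4), a small protein that binds the Sec61 channel, was the called gene of the translocon. It had 250, 271 and 305 CPM in young obese libraries, against 199, 226 and 259 CPM in young lean libraries (0.27 ± 0.07, adjusted p = 0.0198), and only the top of the young lean range reached the young obese one. The channel subunit genes were not called by edgeR. Sec61a1 had a log2 fold change of 0.09, and Sec61b had one of -0.34 ± 0.12 (adjusted p = 0.0613), with all 8 young obese libraries below the young lean median. DESeq2 called Sec61b lower, and voom called Sec61a1 higher. None of the 8 degradation genes was called by edgeR, among them the ubiquitin ligase gene Syvn1 (HRD1), its adaptor Sel1l, the mannosidase-like Edem1 and Edem2, the derlin channel genes Derl1, Derl2 and Derl3, and Herpud1, with log2 fold changes between -0.11 and 0.30. Sel1l was called higher by voom, and by edgeR without young obese 22.

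**Figure D2:**
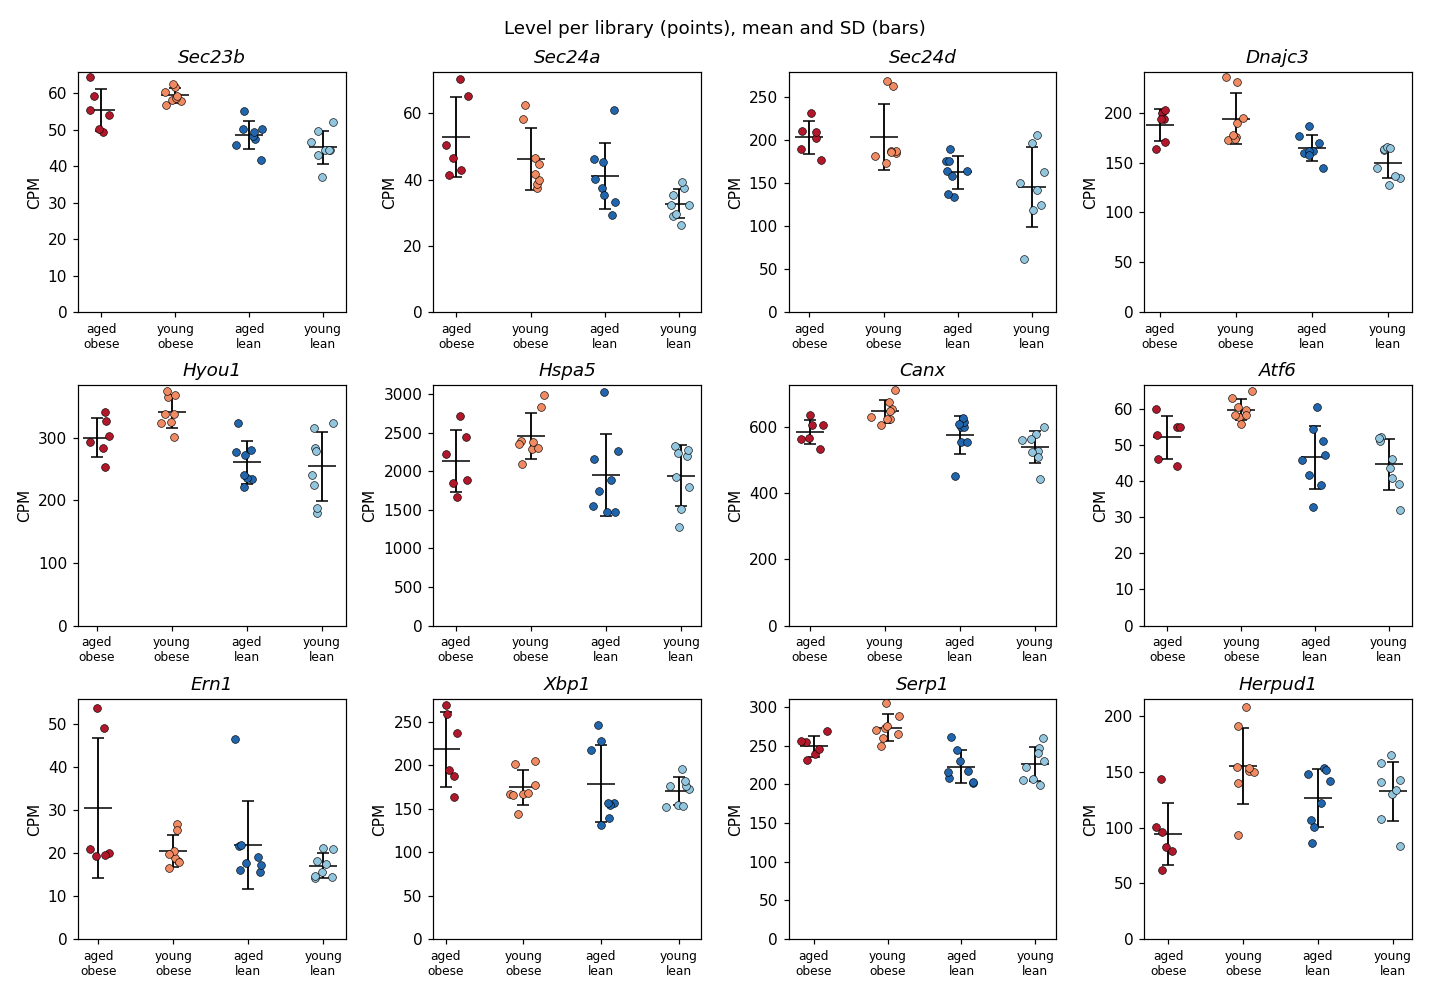
CPM in each library (points) for 12 of the genes, with the mean and SD of each group as bars, n = 6 aged obese and 8 in each other group. The 8 young obese values of Sec23b, Dnajc3, Canx and Atf6 all lie above the young lean ones, while 2 aged obese libraries stand apart for Ern1.

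These calls depended on single libraries. With young lean 26 left out 3 genes remained called, Dnajc3, Serp1 and Sec23b, with 0.652% of all tested genes called higher. With young obese 1 and 2 left out there were 2, Hyou1 and Sec23b, against 0.285% of tested genes, and with all 3 of these libraries left out, a choice made after the data were seen, 0 of 40 and 0 of all tested genes were called. Leaving out young lean 27 gave 5 calls, leaving out young lean 23 gave 7, and leaving out any of young obese 1, young obese 2 and young lean 7 gave 6. The median log2 fold change of the 40 genes was 0.18 to 0.23 with any 1 library left out. Without young obese 18, 19, 20, 21 and 23, which left 3 young obese libraries, 7 of the 11 genes stayed called (17.5% of the 40, beside 5.61% of tested genes) and Sec61b was called lower. Hsp90b1, Hyou1, Canx and Atf6 lost their calls there with log2 fold changes of 0.36, 0.35, 0.30 and 0.45. With each single library left out Sec23b, Dnajc3 and Serp1 stayed called (largest adjusted p 0.0259, 0.0338 and 0.0497).

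**Figure D3:**
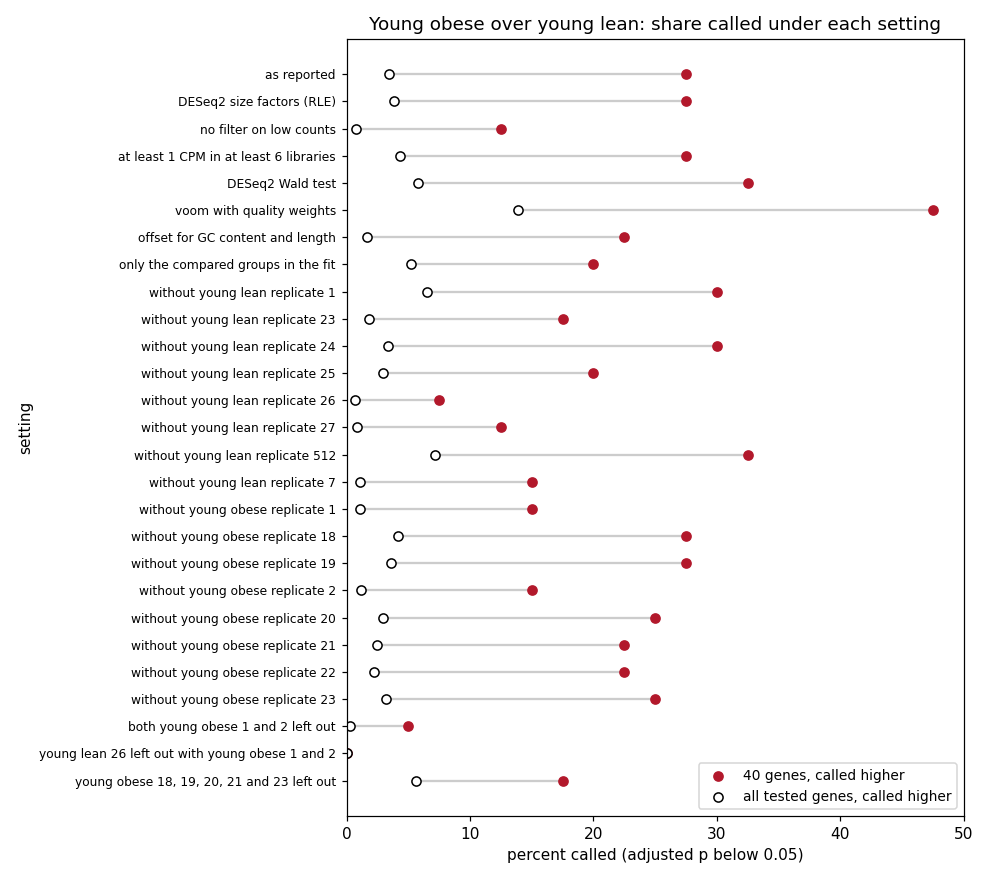
Percent called higher in young obese over young lean libraries under each setting, for the 40 genes (filled) and for all tested genes (open). The filled point lies right of the open one in every setting drawn except that without young lean 26 and young obese 1 and 2, in which nothing was called. Fits of the 4 libraries with shared mouse numbers, which called nothing, are not drawn.

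The called genes were longer than the others of the set. Their median exon length was 6020 bases, against 3328 bases for the genes not called and 4209 bases for all tested genes, and the shortest of them, Hsp90b1, had 4032. Of the 15 longest genes (5000 bases or more) 14 had a positive log2 fold change and 7 were called. Length also moved with the libraries. The slope of log2 level on length, per doubling, was 0.0448 ± 0.0413 in young obese and -0.0375 ± 0.0799 in young lean libraries (SD, n = 8 each), with 0.114 and 0.107 in young obese 1 and 2 and -0.181 in young lean 26. After an offset that corrected for length and GC content the median of the 40 genes was 0.24, 34 were positive and 9 were called higher (22.5%), against 1.67% of tested genes.

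Which genes were called changed with that offset. Sec23b (0.36, adjusted p = 0.0116), Dnajc3, Canx, Serp1, Sec23a and Hsp90b1 stayed called. The other 5 lost their calls and kept positive values. They were Atf6 (0.29 with the offset against 0.42 without, adjusted p = 0.059), Hyou1 (0.33 against 0.43, adjusted p = 0.101), Sec24a (0.34 against 0.50, adjusted p = 0.0833), Sec24b (0.27 against 0.33, adjusted p = 0.0651) and Sec24d (0.43 against 0.49, adjusted p = 0.0588). The short genes Creld2 (0.50, adjusted p = 0.0226) and Sdf2l1 (0.46, adjusted p = 0.0497) and the disulfide isomerase gene Pdia4 (0.34, adjusted p = 0.0225) were called instead, and the value of the short gene Sec61b came to -0.08.

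**Figure D4:**
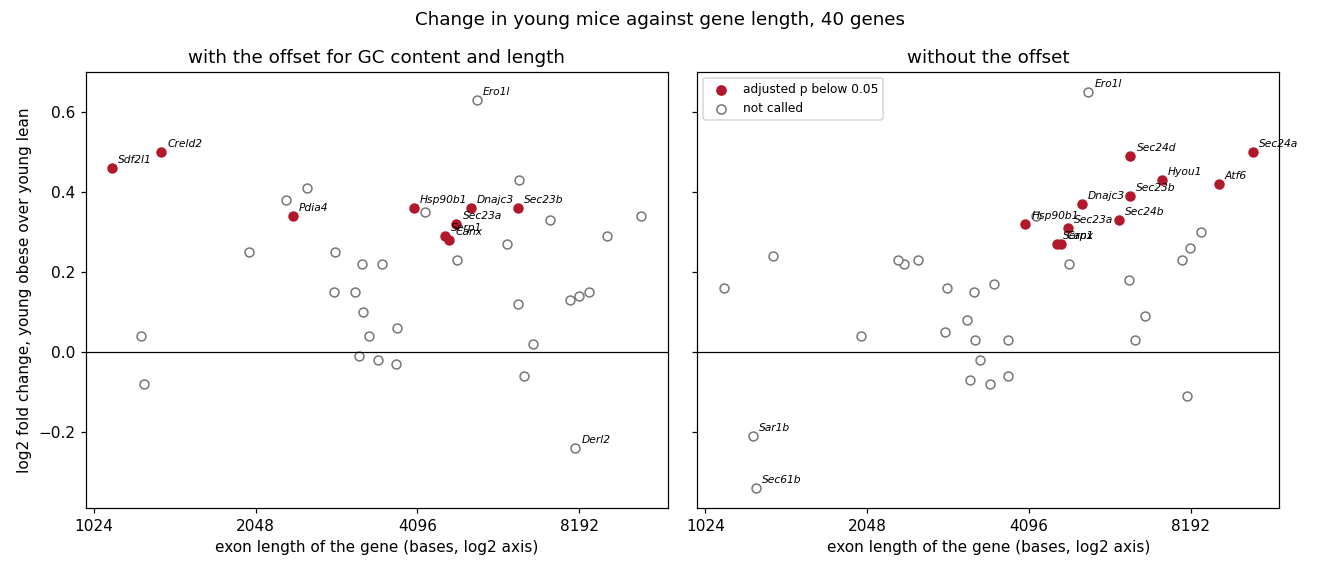
Log2 fold change of young obese over young lean libraries against the exon length of the 40 genes, corrected by the offset (left) and uncorrected (right). Without the offset the called genes lie at 4032 bases and above, and with it genes as short as 1108 bases are called.

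The changes were also read by promoter element. Of the 11 genes with ERSE or ERSE-II, 11 had a positive log2 fold change and 3 were called (Hsp90b1, Dnajc3 and Canx), with a median of 0.23. Of the 24 genes with a window but neither element, 18 were positive and 6 were called, with a median of 0.20. Both genes with the UPRE core printed above, Sec23a and Sec24d, were among the 6.

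Neighbouring steps of the pathway were read from lists of other genes, beside the 3.46% of tested genes called higher and 5.37% called lower. Of 24 other ER folding genes tested, 1 was called higher (4.17%) and 0 lower in young obese libraries. Their median log2 fold change was -0.02, with 10 positive and 14 negative. Of 18 other degradation genes tested, 1 was called higher (5.56%) and 0 lower, with a median of 0.08. Both shares were near the 3.46% of all tested genes. Of 29 cargo receptors, COPII partners and ER exit site genes 6 were called higher (20.7%) and 0 lower in young obese libraries. They included Lman1, the mannose-binding cargo receptor ERGIC-53 (0.25 ± 0.06, adjusted p = 0.0156), Sec23ip, which binds SEC23 (0.29 ± 0.07, adjusted p = 0.0177) and Ctage5, a partner of the collagen export receptor (0.29 ± 0.08, adjusted p = 0.0246). Of 13 ER membrane genes 2 were called higher (15.4%), Atp2a2, the calcium pump SERCA2 (0.57 ± 0.09, adjusted p = 0.00884), and the membrane fusion GTPase gene Atl2 (0.35 ± 0.08, adjusted p = 0.0123). Of 31 genes of translocation and N-glycosylation 3 were called higher, among them the oligosaccharyltransferase genes Stt3b (0.27) and Stt3a (0.22), and 2 lower, among them Srp14 of the signal recognition particle (-0.42), 16.1% in all. Of 13 genes of the COPI coat, which carries cargo back to the ER, 0 were called higher and 2 lower (15.4%), Cope (-0.32) and Copz2 (-0.42). None of the 11 genes of the PERK arm and none of the 9 other stress transcription factors and activators was called.

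Marker lists differed in level between the young groups without any call. The summed mural markers had 4230, 5250 and 5740 CPM (lowest, median and highest) in young obese libraries, against 2670, 3880 and 5570 CPM in young lean libraries. Most of that sum was Acta2, with a median of 4970 CPM in young obese and 3680 CPM in young lean libraries, while the 6 tested mural genes ran from -1.36 to 0.60 on the log2 scale, 4 positive and 2 negative. The summed stromal progenitor markers had 2120, 2290 and 2450 CPM in young obese libraries, against 2240, 2550 and 3100 CPM in young lean libraries, with 6 of 8 genes negative. The summed adipocyte markers had 24.4, 26.7 and 69.6 CPM in young obese libraries, against 26.1, 43.4 and 103 CPM in young lean libraries, and the 3 tested genes were negative with a median of -2.46. Proliferation genes summed to 127, 556 and 839 CPM in young obese libraries, against 252, 358 and 532 CPM in young lean libraries, with 6 of 6 positive. None of these genes was called by edgeR in this comparison, and their part in the result was not tested.

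Obesity in aged mice gave no call among the 40 genes, at 0.166% of tested genes called higher and 0.0554% called lower by edgeR. In the neighbouring lists the pseudokinase gene Trib3 of the PERK arm was called lower (-1.84 ± 0.38, adjusted p = 0.0312). So was the ER membrane gene Itpr3 (-0.50 ± 0.10, adjusted p = 0.0236). Of the 40 genes 35 had positive log2 fold changes, with a median of 0.14, beside 0.01 over all tested genes, and 8 (20%) had an unadjusted p below 0.05, beside 12.7% of tested genes. DESeq2 called 1 gene, Sec61a1, and limma with voom called 0. Sec61a1, the pore of the translocon, had 443, 532 and 617 CPM in aged obese libraries, against 369, 422 and 518 CPM in aged lean libraries (0.29 ± 0.09, adjusted p = 0.138 with edgeR). All 6 aged obese libraries lay above the aged lean median. Without aged lean 16 edgeR called 1 of the 40 genes higher, against 2% of tested genes. With all libraries most neighbouring lists had mainly positive values, and none held a call higher. Positive were 23 of 24 other ER folding genes (median 0.12), 16 of 18 other degradation genes (0.10) and 26 of 31 translocation genes (0.08). So were 23 of 29 COPII partners and cargo receptors (0.14), 10 of 13 COPI genes (0.13) and 11 of 13 ER membrane genes (0.07). The PERK arm had 3 of 11 positive (median -0.45).

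Several genes called in young mice had positive values here without passing. Sec23b had 49.5, 54.7 and 64.5 CPM in aged obese libraries, against 41.8, 48.9 and 55.2 CPM in aged lean libraries (0.19 ± 0.07, adjusted p = 0.24). Dnajc3 had 163, 194 and 203 CPM in aged obese libraries, against 145, 161 and 187 CPM in aged lean libraries (0.19 ± 0.08, adjusted p = 0.35). For both genes all 6 aged obese libraries lay above the aged lean median, and the groups overlapped.

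Others differed little between the aged groups. Canx had 535, 585 and 636 CPM in aged obese libraries, against 452, 601 and 627 CPM in aged lean libraries (0.02 ± 0.07). Hspa5 had 1670, 2050 and 2720 CPM in aged obese libraries, against 1470, 1820 and 3030 CPM in aged lean libraries (0.13 ± 0.16, adjusted p = 0.804). Library 16 held the top of the aged lean range of Hspa5.

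The effect of obesity was compared between ages by the interaction term. No gene of the 40 was called, at 0.00693% of tested genes, and the smallest adjusted p among them was 0.543, for Herpud1 (-0.65 ± 0.24). At an unadjusted p below 0.05 there were 5 genes (12.5%), beside 8% of tested genes, and DESeq2 and voom called 0. A difference between the ages was thus not shown for any of the 40 genes, although 11 were called in young and 0 in aged mice.

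**Figure D5:**
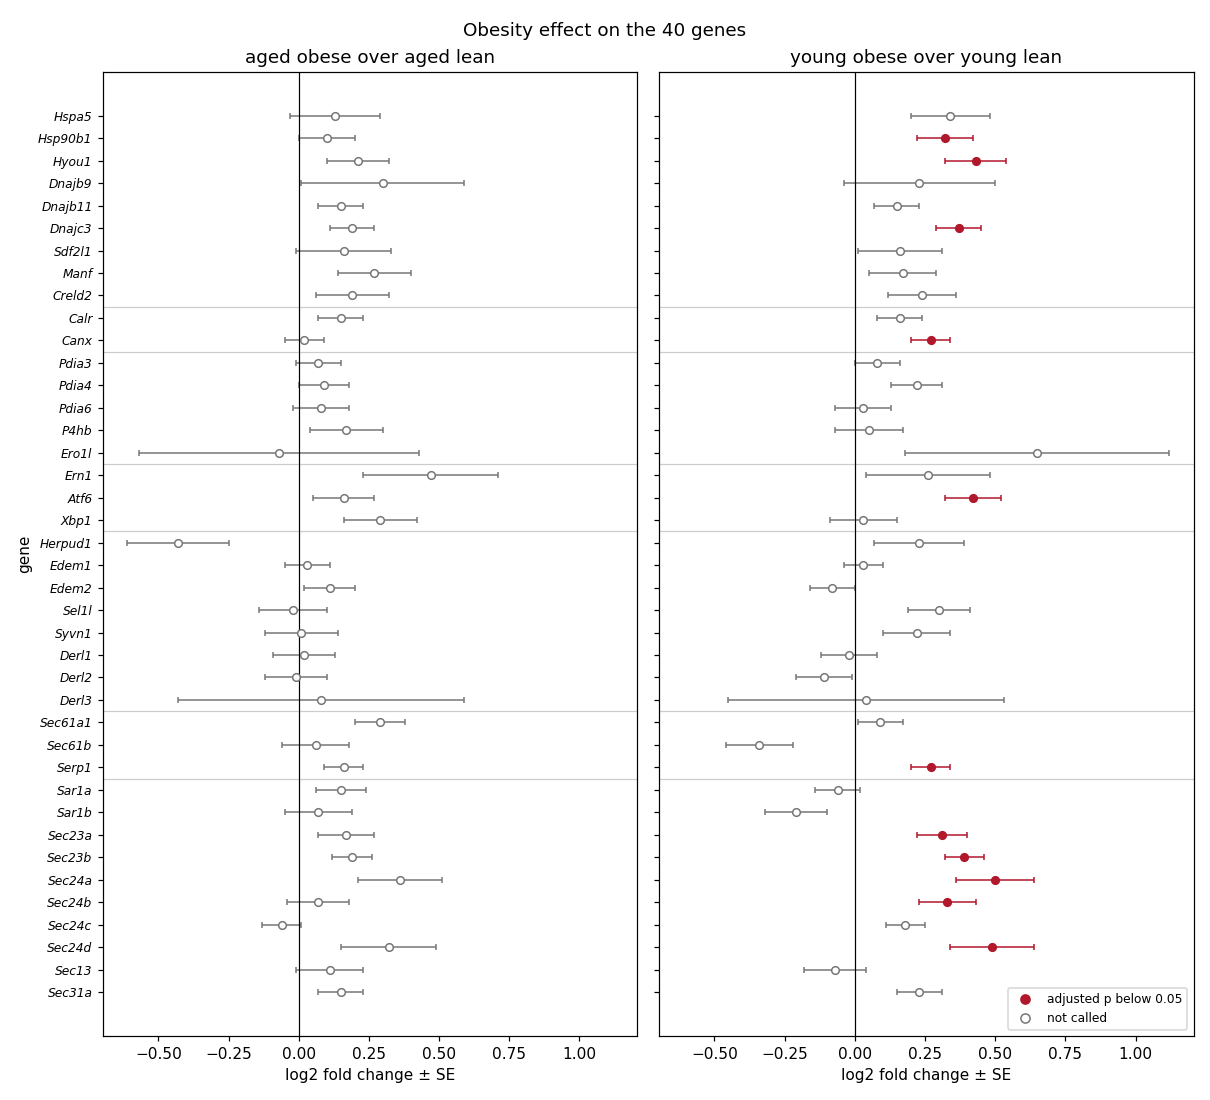
Log2 fold change ± SE of each of the 40 genes, aged obese over aged lean (left, n = 6 and 8) and young obese over young lean (right, n = 8 each), with called genes filled. Values in young mice run from -0.34 to 0.65 with 11 genes called, and in aged mice from -0.43 to 0.47 with none called.

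In lean mice age gave no call among the 40 genes by edgeR, DESeq2 or voom, at 0% of tested genes with edgeR, and 2 of 40 (5%) had an unadjusted p below 0.05, beside 5.35% of tested genes. The median log2 fold change was 0.03, with 25 of 40 positive. Sec24a had the smallest p, with 29.2, 38.8 and 61.1 CPM in aged lean libraries, against 26.3, 32.4 and 39.3 CPM in young lean libraries (0.32 ± 0.14, adjusted p = 0.85).

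Age in obese mice gave 1 call, a lower level, at 1.2% of tested genes called lower and 1.87% called higher, 3.07% in all. Herpud1, a membrane protein of the degradation complex whose gene is induced by ER stress and by PERK signalling, had 62.2, 89.4 and 143 CPM in aged obese libraries, against 93.7, 152 and 208 CPM in young obese libraries. Its log2 fold change was -0.72 ± 0.18 (adjusted p = 0.0285), and 0 of 6 aged obese libraries reached the young obese median. The groups overlapped, since aged obese 14 (143 CPM) lay above young obese 22 and 23 (93.7 and 140 CPM). Aged lean libraries had 86.3, 132 and 154 CPM, and young lean libraries 83.2, 137 and 165 CPM.

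Xbp1 and Ern1 had positive values without passing. Xbp1 had 163, 215 and 270 CPM in aged obese libraries, against 144, 168 and 205 CPM in young obese libraries (0.32 ± 0.13, adjusted p = 0.169), and Ern1 had a log2 fold change of 0.57 ± 0.24 (adjusted p = 0.185). Without aged obese 15 and 17 these values were 0.16 for Xbp1 and -0.04 for Ern1. With voom 4 genes (10%) were called higher, Dnajb9, Xbp1, Edem2 and Sar1a, beside 9.83% of tested genes. With aged obese 10 and 12 left out edgeR called 5 higher (12.5%), Ern1, Xbp1, Edem2, Derl1 and Sar1a, beside 9.46% of tested genes. Both shares were near those of all genes. The median of the 40 genes was -0.03 with 16 positive. The call of Herpud1 was lost with any of 5 single libraries left out, aged obese 15 or 17 or young obese 2, 19 or 21, with a largest adjusted p of 0.105. It was also lost without aged obese 15 and 17 (-0.55, adjusted p = 0.223), without young obese 1 and 2, and without young obese 18, 19, 20, 21 and 23 (-0.81, adjusted p = 0.134). Of 11 genes of the PERK arm 2 were called lower in aged against young obese libraries. They were the pseudokinase gene Trib3 (-2.04 ± 0.39, adjusted p = 0.00745) and the stress-induced sestrin gene Sesn2 (-0.73 ± 0.17, adjusted p = 0.0244). Trib3 was also called lower in aged obese against aged lean libraries (-1.84 ± 0.38, adjusted p = 0.0312). Values with libraries left out were not read for Trib3 and Sesn2.

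Aged obese against young lean mice, which differ in both age and diet, gave 6 calls higher (15%) and 0 lower, at 5.62% and 4.65% of tested genes, 10.3% in all. The young lean libraries are the same ones as in the comparison of young mice, so the calls in both are not independent. The genes were Sec24a, Sec23b, Sec31a, Dnajc3, Sec61a1 and Ern1, and the median log2 fold change of the 40 genes was 0.14 with 32 positive. Sec24a had 41.5, 48.4 and 70.3 CPM in aged obese libraries, against 26.3, 32.4 and 39.3 CPM in young lean libraries, without overlap (0.69 ± 0.15, adjusted p = 0.00838), while 1.04% of tested genes did not overlap. Sec31a had 347, 396 and 418 CPM in aged obese libraries, against 218, 337 and 369 CPM in young lean libraries (0.27 ± 0.08, adjusted p = 0.0384). Sec61a1 had 443, 532 and 617 CPM in aged obese libraries, against 393, 414 and 479 CPM in young lean libraries (0.30 ± 0.09, adjusted p = 0.0267).

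Sec23b and Dnajc3 differed by 0.29 ± 0.07 (adjusted p = 0.0124) and 0.32 ± 0.08 (adjusted p = 0.0172) on the log2 scale, with all 6 aged obese libraries above the young lean median for both. Ern1 showed the largest change among the 40 genes, 0.83 ± 0.24 (adjusted p = 0.027), and rested on few libraries. Aged obese 15 and 17 had 49.2 and 53.8 CPM, the other 4 aged obese libraries 19.4 to 21 CPM, and young lean libraries 14.2 to 21.2 CPM. Without aged obese 17 its log2 fold change was 0.59 (adjusted p = 0.113), and without aged obese 15 it was 0.65 (adjusted p = 0.109). The call was also lost, at 0.80, without young lean 26. Without both aged obese 15 and 17 the value of Ern1 was 0.23 ± 0.21 (adjusted p = 0.544), and of the 6 genes only Sec23b stayed called (0.37 ± 0.08, adjusted p = 0.0228), beside 164 of 14670 tested genes called higher. Without aged obese 10 and 12 Dnajc3, Ern1 and Sec24a stayed called and Dnajb9, Xbp1 and Sar1a were called as well, beside 6.11% of tested genes. Sec24a and Sec23b stayed called with any 1 library left out (largest adjusted p 0.0317 and 0.029). Dnajc3 was lost without aged obese 15 (adjusted p = 0.0517), Sec61a1 without aged obese 12 or 15 or young lean 27 (up to 0.0754), and Sec31a without aged obese 10, 12, 15 or 17 or young lean 27 (up to 0.0896). The number of genes called was 2 without aged obese 15 and 9 without the young lean library YL512.

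In the same comparison the neighbouring lists held calls in both directions, beside 5.62% of tested genes called higher and 4.65% called lower. Of 9 other stress transcription factors and activators 2 were called higher (22.2%). They were the regulators of collagen and secretory genes Creb3l2 (2.17-fold, adjusted p = 0.0146) and Creb3l1 (1.65-fold, adjusted p = 0.0313). Of 29 COPII partners and cargo receptors 4 were called higher and 1 lower (17.2% in all), and of 18 other degradation genes 4 higher (22.2%). Of 13 ER membrane genes 3 were called higher (23.1%). Other lists stayed near the share of all genes. Called higher were 1 of 24 other ER folding genes (4.17%), 2 of 31 translocation genes (6.45%) and 1 of 13 COPI genes (7.69%). Of 11 genes of the PERK arm 5 were called lower (45.5%). Among them were Trib3 (-2.36 ± 0.39, adjusted p = 0.00267), the transcription factor gene Ddit3, or CHOP (-1.38 ± 0.30, adjusted p = 0.0087), and Atf4, which drives that arm (-0.38 ± 0.11, adjusted p = 0.0213). The median over that list was -0.57. Of 6 mural genes tested 2 were called higher, Cspg4 (1.5) and Myh11 (1.2). The summed mural level was 3240, 4620 and 7480 CPM in aged obese libraries, against 2670, 3880 and 5570 CPM in young lean libraries, and its part in the result was not tested.

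Within groups the genes varied in sets. After subtracting the mean of each group, Pearson correlations of log2 CPM over 30 libraries had a median of 0.16 over the 780 pairs of the 40 genes, and of 0.51 over 28 pairs of degradation genes, 0.42 over 10 pairs of disulfide genes, 0.36 over 36 pairs of chaperones and 0.28 over 45 pairs of coat genes. The libraries share depth, length slope and the close sets named above, so these values describe the libraries and carry no test. Ern1 was most like Sec24a (0.88), Xbp1 most like Dnajb9 (0.87), Hspa5 most like Syvn1 (0.84) and Atf6 most like Sec24b (0.79). Sec23b was most like Sec24c (0.64) and Herpud1 most like Edem1 (0.58).

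Single libraries lay far apart for some of these genes. Dnajb9 reached 62.2 and 64.6 CPM in aged obese 15 and 17 and 52.2 and 55.5 CPM in young obese 1 and 2, whereas aged obese 10 and 12 had 16.5 and 19.8 CPM. Ero1l reached 824 CPM in aged obese 17 and 997 and 868 CPM in young obese 1 and 2, whereas aged obese 10 and 12 had 69.6 and 80.3 CPM. Aged lean 16 had the highest level of its group for Hspa5, Hsp90b1, Dnajb9, Ero1l, Ern1 and Xbp1. The lowest correlation was -0.85, between Derl2 and Sec24b, and within the coat it was -0.78, between Sar1b and Sec24b.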

How the data were processed

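Each value in the deposited matrix is a raw read count for an Ensembl gene, without normalization by the authors. Their notes on processing, as given by the submitters, name STAR, HTSeq (0.7.0) and DESeq2 (1.12.4) without saying how each was set. Genome build, annotation and strand setting are not given in the sources used here. Reads of overlapping or antisense genes therefore cannot be told apart, and gene coordinates are printed only for the RefSeq promoter windows. Lines that named no gene (no feature, 3.94% to 8.75% of reads, and ambiguous, 2.69% to 3.41%, among them) were left out. Symbols, exon lengths and GC content came from GENCODE M21 (36639 of 38561 identifiers matched). The filterByExpr function of edgeR 4.0.16 under R 4.3.3 removed low genes by group, libraries were scaled with TMM, and a model was fitted with 1 term per group over all 30 libraries, and p-values of the quasi-likelihood test were adjusted by Benjamini-Hochberg over 14438 genes. SE is the log2 fold change over the square root of F. The fit was tested on simulated counts. These were drawn independently for each library, so they do not test the fit for libraries that fall into close sets. Alternatives were other scaling (RLE), filters, DESeq2 1.42.0, voom with quality weights (limma 3.58.1), an offset for GC content and length (99.02% of tested genes had both), only the compared groups, and libraries left out. Counts of this depth leave little counting error (at least 435 reads in every library for each of the 40 genes but Derl3, which had as few as 3). Precision is thus limited by the spread between libraries. With 1 library per mouse, differences between mice cannot be told apart from those of sort, culture and library preparation. The 40 genes and all lists were chosen with earlier results of these data known. Values by library are given for the 12 called genes with the smallest adjusted p over the comparisons and for Hspa5, Xbp1, Ern1 and Atf6, and of other lists at most 4 called genes with the smallest adjusted p are named. Group means of 3 further called genes, and libraries named for Ero1l, Dnajb9 and others, were chosen after their values were seen.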

Additional observations from a re-analysis of the deposited data

Results flagged for a closer look

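In 160 combinations of gene and group the library farthest from the others was compared with the range of its group, and 8 stood apart by Dixon's criterion. Chance alone marks about 1 in 20 groups, and 8 of 160 does not exceed that share. Aged lean 16 accounted for 3 of the 8. It had 1060 CPM of Ero1l, against 177 to 330 CPM in the other aged lean libraries, 46.6 CPM of Ern1, against 15.7 to 21.8 CPM, and 1600 CPM of Hsp90b1, against 1050 to 1290 CPM. Young lean 26 had 81.7 CPM of Sec24c, against 100 to 113 CPM, and young lean 1 had 71.2 CPM of Syvn1, against 84.0 to 94.6 CPM. Aged lean 15 had 452 CPM of Canx, against 554 to 627 CPM, and aged lean 12 had 307 CPM of Sec31a, with all others between 350 and 367 CPM. Young obese 22 had 144 CPM of Derl1, against 176 to 197 CPM.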

How the results depend on the processing

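The number of the 40 genes called higher in young obese over young lean libraries (11) was 11 with RLE scaling and with a filter of at least 1 CPM in 6 libraries, 13 with DESeq2, 9 with the offset and 8 with only the compared groups. It was 5 with no filter, 19 with voom, 3 to 13 with 1 library left out, 2 without young obese 1 and 2, 0 without these and young lean 26, and 7 without young obese 18, 19, 20, 21 and 23. The share of all tested genes called higher (3.46%) moved too, to 5.75% with DESeq2, 13.9% with voom, 0.783% with no filter and 0.652% to 7.19% with 1 library left out. Counts lower there were 1 with DESeq2, 1 without young obese 18, 19, 20, 21 and 23 and 0 to 1 with 1 library left out. For aged obese over aged lean, counts higher were 1 with DESeq2 and 0 to 1 with 1 library left out (1 without aged lean 16). For aged over young obese, counts higher were 4 with voom and 5 without aged obese 10 and 12. Counts lower were 2 with voom, 0 with only the compared groups, 0 without young obese 1 and 2, 0 without young obese 18, 19, 20, 21 and 23, 0 without aged obese 15 and 17, 2 without aged obese 10 and 12, and 0 to 1 with 1 library left out. For aged obese over young lean, counts higher were 3 with voom, 1 with only the compared groups, 1 without aged obese 15 and 17 and 2 to 9 with 1 library left out, and counts lower 0 to 1. The cause was not tested. Medians of the 40 genes moved by less than the SD between libraries (0.0862) in all settings but those of the interaction (-0.04), which was -0.13 without aged obese 15 and 17 and -0.14 without young obese 18, 19, 20, 21 and 23. Without aged obese 15 and 17 Ern1 turned to -0.14 in aged obese over aged lean and to -0.04 in aged over young obese libraries. Xbp1 in young mice (0.03) turned to -0.01 with voom and ranged from -0.00 (without young obese 2) to 0.07 with 1 library left out. It was -0.05 without young obese 1 and 2 and -0.07 without these and young lean 26.

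Mouse numbers shared between groups were taken as identifiers. The sample titles do not say whether a shared number marks a pair. Libraries with the same number had correlations of deviations of 0.076 and 0.267 in young and between -0.564 and 0.426 in aged mice. With such a number as replicate block, which left 4 libraries in young mice, 0 of the 40 genes and 0 of all tested genes were called, with and without the block on the same libraries. At that size these fits say nothing of the calls. Counting error was small beside the spread between libraries, which was widest in the 6 aged obese libraries over all tested genes (median SD of log2 CPM 0.39).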
